A study of Mus musculus with 6 samples.

Results

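Granzymes and perforin are the proteins with which a cytotoxic lymphocyte kills its target, and serglycin is the proteoglycan that holds them in the granule. The 10 genes described here are Srgn, which encodes serglycin, Gzmb, Gzmc, Prf1, which encodes perforin, Gzma, Gzmg, Gzmk, Gzmf, Gzme and Gzmd, in the order of their mean signal from the brightest probe to the dimmest. They were chosen by name, as every non-control probe whose gene name on the array was one of these symbols. Each gene had 1 probe, which gave 10 of the 41174 non-control probes. No member passed an adjusted p of 0.05, as 0.13% of all tested probes did. Srgn was the one tested member whose 3 cKO arrays all lay above the 3 control arrays, by 0.65 ± 0.20 (SE) on the log2 scale with an adjusted p of 0.16 (limma), a pattern that 16.2% of all tested probes had. For Gzmb, Gzmc, Prf1 and Gzma the 2 groups overlapped, and the spread among the control mice exceeded the difference between the groups for Gzmb, Gzmc and Gzma. Gzmd, Gzme, Gzmf, Gzmg and Gzmk were well above background on 2 arrays at most.

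Perforin opens pores in the membrane of a target cell, and granzymes are serine proteases that enter through them and cleave proteins of the target. The proteases are made as inactive precursors, trimmed by cathepsin C in the granule, and packed there with serglycin, whose negatively charged sugar chains bind them. These genes are best known from CD8 T cells and natural killer (NK) cells, but activated CD4 T cells also make some of them, and granzyme B is one of the means by which regulatory T (Treg) cells have been described to act on other lymphocytes. In the mouse, the genes for granzymes B to G lie in 1 cluster with the mast cell proteases, whereas granzymes A and K lie side by side elsewhere.

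The data are 6 one-colour microarrays (Agilent whole mouse genome), 1 for each of 3 miR-31 fl/fl CD4Cre mice (cKO) and 3 age-matched control mice, all 6 weeks old and C57BL/6. The methods name the controls as miR-31 fl/fl mice, which carry the floxed allele but not the CD4Cre transgene, so the presence of Cre and the loss of miR-31 cannot be told apart. CD4Cre is active in all cells that pass the CD4+CD8+ stage in the thymus, and therefore also in CD8 T cells. The starting cells were naive splenic T cells, sorted as CD4+, CD62Lhi and negative for CD25 and for the Foxp3gfp reporter, and they were cultured for 4 days with plate-bound anti-CD3 at 5 μg per ml and soluble anti-CD28 at 2 μg per ml. Both groups received TGF-β1 at 5 ng per ml and IL-2 at 40 ng per ml, the condition for induced Treg (iTreg) cells, and total RNA was taken from the whole culture.

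Values are log2 processed signal minus the 75th percentile of the same array, and means are given ± SD (n = 3). A probe entered the test when 3 or more of the 6 arrays had it well above background, and 22281 probes did, among them 5 of the 10 members. Between 49.3% and 57.7% of all probes were well above background per array, and 0 spots were saturated. All 10 of the CD4 T and Treg cell marker genes examined were well above background on all 6 arrays. Of these 10 genes, 6 were higher and 4 lower in cKO, 0 passed the adjusted threshold, and the groups did not overlap for 7, against 36.5% of all tested probes. They did not move one way, since Cd4 and Ctla4 differed by 0.67 and 0.94 on the log2 scale, with 0.65 and 0.66 within slide 1, and Foxp3 by -0.61, with -0.50 within slide 1 (adjusted p = 0.17, 0.14 and 0.19, limma). The 3 cKO arrays and control 1 shared a slide and a scan, whereas control 2 and control 3 were on another slide. Differences are therefore given over all 6 arrays and also within slide 1, as the mean of the 3 cKO arrays minus control 1. The latter is given for the tested members and for the tested genes named from the lists. With 1 control array that value has no measure of the spread among controls and is given without a test.

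The microRNA removed in the cKO mice is shown first because its deletion is what the comparison asks about. The mature strand mmu-miR-31-5p lies on the minus strand at chr4:88910614-88910635 (GRCm38.p6, RefSeq), and its seed, bases 2 to 8, is in capitals.
mmu-miR-31-5p: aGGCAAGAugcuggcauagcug

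The 6 members on chromosome 14 are close relatives, so the member probes were compared with each other for shared sequence. Of all pairs of member probes, those of Gzmd and Gzme were the most alike. They share an unbroken run of 14 bases, in capitals below, and match at 43 of 51 overlapping bases (84.3%). The Gzmd probe lies at chr14:56750116-56750175 and the Gzme probe at chr14:56738175-56738234, both on the minus strand of the mm9 build and both within coding sequence. No other pair of member probes shared a run of more than 9 bases. A signal from either of these 2 probes could in part come from the other gene. The probes lie at different places in their transcripts and were not compared with the transcripts of other members. Whether any member probe reads another member was therefore not tested.
Gzmd probe: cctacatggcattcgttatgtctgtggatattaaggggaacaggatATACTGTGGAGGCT
Gzme probe: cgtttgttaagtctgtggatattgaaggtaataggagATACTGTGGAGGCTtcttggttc

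The stretch before the start of each gene is shown next because neighbours with similar promoters differed in whether they were detected. The 250 bases before the RefSeq start were 84.4% to 95.6% identical over the 10 pairs among Gzmc, Gzmd, Gzme, Gzmf and Gzmg after alignment. Pairs that include Gzmc, the only one of these genes well above background on all 6 arrays, were 84.4% to 86.5% identical. Pairs without Gzmc were 88.2% to 95.6% identical. The 60 bases that hold the letters TGACGTCA (a cyclic AMP response element, CRE) in 3 of them are given below, with those 8 positions in capitals. They lie on the minus strand of GRCm38.p6, at chr14:56234667-56234726 for Gzmc, chr14:56132607-56132666 for Gzmd, chr14:56120640-56120699 for Gzme, chr14:56211442-56211501 for Gzmf and chr14:56159609-56159668 for Gzmg. Gzmd and Gzme each differ from these letters at 1 of the 8 positions. Gzmc, Gzmf and Gzmg hold all 8, and of these 3 genes Gzmc alone was well above background on all 6 arrays.
Gzmc: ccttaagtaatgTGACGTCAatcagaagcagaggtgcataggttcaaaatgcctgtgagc
Gzmd: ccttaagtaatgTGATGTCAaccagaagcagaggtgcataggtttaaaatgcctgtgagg
Gzme: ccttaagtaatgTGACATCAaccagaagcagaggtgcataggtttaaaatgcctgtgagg
Gzmf: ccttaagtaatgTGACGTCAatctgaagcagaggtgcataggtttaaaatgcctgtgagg
Gzmg: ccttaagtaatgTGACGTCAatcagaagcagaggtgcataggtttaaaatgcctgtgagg

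Gzmb and Gzmc had the same order of the 6 arrays (below), and their 250-base promoters are printed whole for that reason. The Gzmb window is chr14:56262335-56262584 and the Gzmc window chr14:56234658-56234907, both on the minus strand of GRCm38.p6. Capitals mark matches, on either strand, to the RUNX letters TGTGGT, the AP-1 letters TGANTCA and the CRE letters TGACGTCA.
Gzmb: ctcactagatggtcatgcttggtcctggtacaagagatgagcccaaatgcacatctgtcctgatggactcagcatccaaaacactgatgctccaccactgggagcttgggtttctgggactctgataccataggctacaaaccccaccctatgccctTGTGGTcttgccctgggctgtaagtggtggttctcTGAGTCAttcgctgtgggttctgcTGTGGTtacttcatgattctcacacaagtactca
Gzmc: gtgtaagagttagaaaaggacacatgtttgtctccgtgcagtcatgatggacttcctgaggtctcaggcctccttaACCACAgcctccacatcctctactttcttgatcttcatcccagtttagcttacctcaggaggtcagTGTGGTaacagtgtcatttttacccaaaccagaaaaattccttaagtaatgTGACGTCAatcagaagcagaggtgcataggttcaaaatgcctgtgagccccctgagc

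The 11 RefSeq promoters of the 10 members were searched for 7 motifs. RUNX letters were in 9 of the 10 genes, all but Gzmk, against 14.0% of the 32851 promoters in the table. For Srgn they were in 1 of its 2 promoters, so the count is per gene and the share per promoter. CRE letters were in 3 genes, named above, against 1.55% of promoters. The AP-1 letters were in Gzmb alone, 58 bases before its start, against 6.75%. The T-box letters GGTGTGA were in Gzmk alone, against 3.33%, and the NFAT letters TGGAAAA in Gzma and in 1 of the 2 promoters of Srgn, against 5.93%. The STAT letters TTCNNNGAA, in 7.02% of promoters, and the SMAD letters GTCTAGAC, in 0.167%, were in no member promoter. Matches of different motifs overlapped in 0 places. Gzmc to Gzmg share most of their letters, so their matches are not separate observations, and a match is a run of letters and not a binding site.

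For serglycin the 2 groups were apart, but the difference did not pass the test across the array. Srgn (NM_011157, probe at chr10:61957219-61957278, minus strand, mm9) had processed signals of 50636, 54372 and 62903 in cKO 1, 2 and 3 and of 48922, 38497 and 29499 in control 1, 2 and 3. On the log2 scale relative to the 75th percentile these were 5.65, 5.77 and 6.07 in cKO and 5.48, 5.21 and 4.84 in control. All cKO arrays were above all control arrays, but cKO 1 and control 1, the nearest of the 2 groups, lay close together. The means were 5.83 ± 0.21 and 5.18 ± 0.32 (SD, n = 3), a 1.57-fold higher level in cKO with a log2 difference of 0.65 ± 0.20 (SE, 95% interval 0.17 to 1.14). The unadjusted p was 0.016 and the adjusted p 0.16 (limma, Benjamini-Hochberg over all tested probes). The exact permutation test over the arrays, 2-sided, gave p = 0.10, the smallest that 3 arrays against 3 allow. Within slide 1, where the 3 cKO arrays faced control 1 alone, the difference was 0.35. Without cKO 3 it was 0.53 with an unadjusted p of 0.052, and with the normexp background correction scaled to the 75th percentile 0.44 with an unadjusted p of 0.12, so neither passed the unadjusted threshold, whereas normexp with quantile normalization gave 0.74 with an unadjusted p of 0.0068 (limma).

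Over the array as a whole, 29 of the 22281 tested probes (0.13%) passed an adjusted p of 0.05 and 23.0% an unadjusted p of 0.05, with 11.7% of all tested probes passing the latter as higher in cKO. Of the 5 tested members, 0 passed the adjusted and 1, Srgn, the unadjusted threshold. Groups that did not overlap with cKO higher, the pattern of Srgn, were seen for 16.2% of tested probes. The 5 members had a median log2 difference of 0.11, with 3 higher and 2 lower in cKO, and all tested probes a median of -0.04, with 10149 higher and 12132 lower. RNA came from whole cultures, so fewer cells that express a gene and less of its RNA per cell cannot be told apart for any member.

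**Figure D1:**
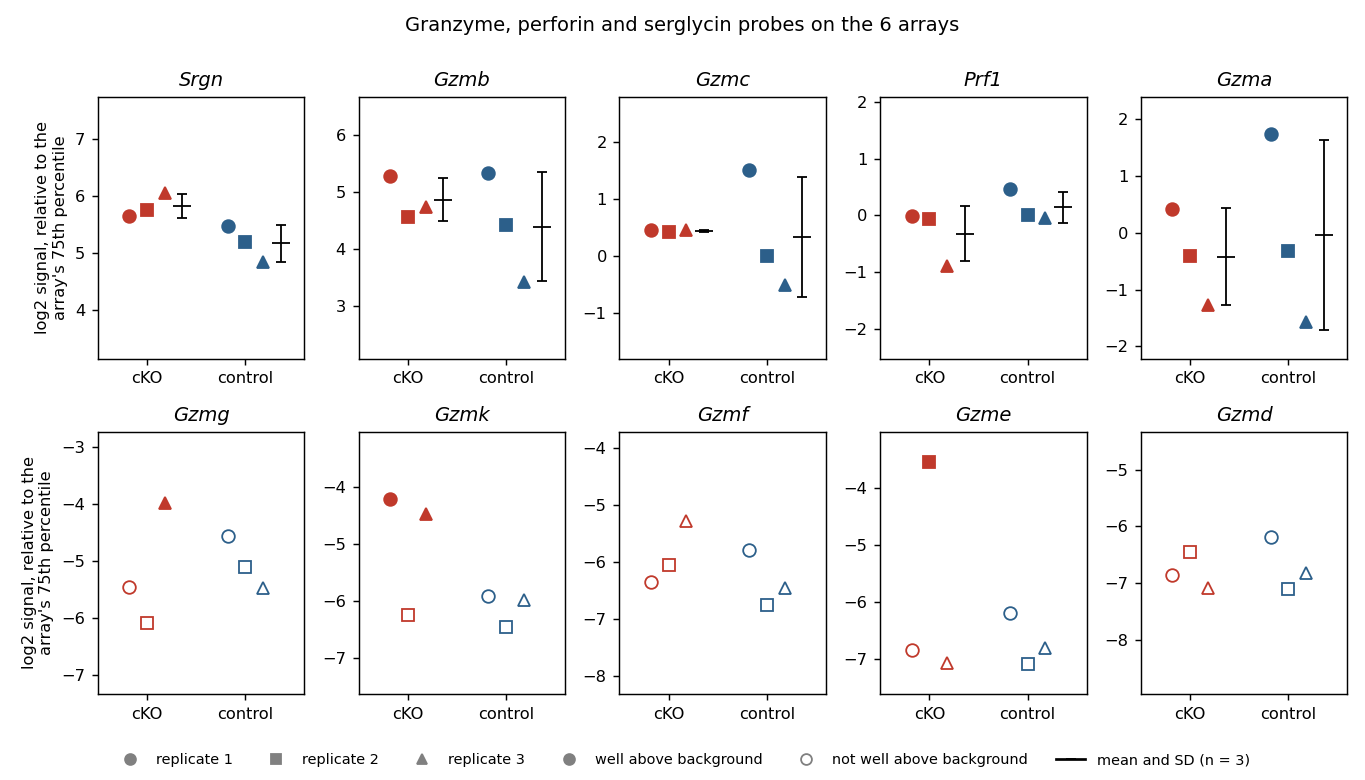
Log2 signal relative to the 75th percentile of the array for each of the 10 members, in 3 cKO arrays (red) and 3 control arrays (blue). Symbols give the replicate number, filled symbols are well above background, open ones are not, and bars give the mean and SD of the 5 members measured on all arrays. Every panel spans the same number of log2 units, and levels are not comparable between panels because each is a different probe. The Srgn groups are apart, the Gzmc values of cKO nearly coincide while those of control spread over 2.02 log2 units, and only 4 symbols are filled in the lower row.

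Granzyme B, the protease that cleaves after aspartate and starts the caspase cascade in the target, was the brightest of the granzyme probes. Gzmb (NM_013542, probe at chr14:56877916-56877975, minus strand, mm9) had processed signals of 39504, 23801 and 25182 in cKO and of 44148, 22540 and 11107 in control. The log2 values were 5.30, 4.57 and 4.74 in cKO and 5.33, 4.43 and 3.43 in control. Control 1 was the highest and control 3 the lowest of all 6 arrays, and the 3 cKO arrays lay between them. The means were 4.87 ± 0.38 and 4.40 ± 0.95 (SD, n = 3), and the log2 difference of 0.47 ± 0.48 (SE, 95% interval -0.70 to 1.65) did not pass the test (adjusted p = 0.56, limma). The direction depended on which control was used, with -0.46 within slide 1, 0.94 without control 1 and -0.01 without control 3.

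Granzyme C, which mice have and humans lack, was highest on control 1 and lowest on control 2 and control 3, as granzyme B was. Gzmc (NM_010371, probe at chr14:56851095-56851154, minus strand, mm9) had processed signals of 1379, 1342 and 1286 in cKO and of 3122, 1048 and 725 in control. Its log2 values were 0.46, 0.43 and 0.45 in cKO, a range of 0.03, and 1.51, 0.01 and -0.51 in control, a range of 2.02. From high to low, both genes ran control 1, cKO 1, cKO 3, cKO 2, control 2 and control 3. The cKO values of Gzmc were too close together for their order to count. The share of all tested probes with this order was not computed. The means of Gzmc were 0.44 ± 0.02 and 0.34 ± 1.05 (SD, n = 3), and the log2 difference was 0.11 ± 0.50 (SE, 95% interval -1.10 to 1.31, adjusted p = 0.91, limma). Within slide 1, against control 1, the highest array of the 6, it was -1.07, while without control 1 it was 0.70, and it was also below 0 without control 2 (-0.06) or control 3 (-0.31).

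Granzyme A, which cleaves after basic residues and acts without caspases, varied most among the 5 tested members. Gzma (NM_010370, probe at chr13:113885986-113886045, minus strand, mm9) had processed signals of 1345, 754 and 389 in cKO and of 3656, 834 and 349 in control. The log2 values were 0.42, -0.41 and -1.27 in cKO and 1.74, -0.32 and -1.56 in control, so that each group held both a high and a low mouse. The means were -0.42 ± 0.85 and -0.05 ± 1.67 (SD, n = 3), with a log2 difference of -0.37 ± 0.87 (SE, 95% interval -2.49 to 1.75, adjusted p = 0.81, limma). The control arrays spanned 3.30 log2 units. Control 1 again stood highest and control 3 lowest. Within slide 1, against control 1, the difference was -2.16, without control 1 it was 0.52, and without cKO 3 it was 0.05.

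Perforin did not share this order. Prf1 (NM_011073, probe at chr10:60766528-60766587, plus strand, mm9) had processed signals of 998, 958 and 509 in cKO and of 1504, 1050 and 997 in control. The log2 values were -0.01, -0.06 and -0.88 in cKO and 0.46, 0.01 and -0.05 in control, with cKO 3 well below the other 5 arrays. The means were -0.32 ± 0.49 and 0.14 ± 0.28 (SD, n = 3), and the log2 difference of -0.46 ± 0.28 (SE, 95% interval -1.13 to 0.21) did not pass the test (adjusted p = 0.34, limma). It was -0.78 within slide 1 and -0.18 without cKO 3, and it stayed below 0 whichever single array was left out. With arrays weighted by how well each fitted over all probes, the difference was -0.21. The lowest of these weights, 0.17, was that of cKO 3. The exact permutation test over the arrays gave p = 0.2 for Prf1, 0.5 for Gzmb, 1 for Gzmc and 0.8 for Gzma.

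**Figure D2:**
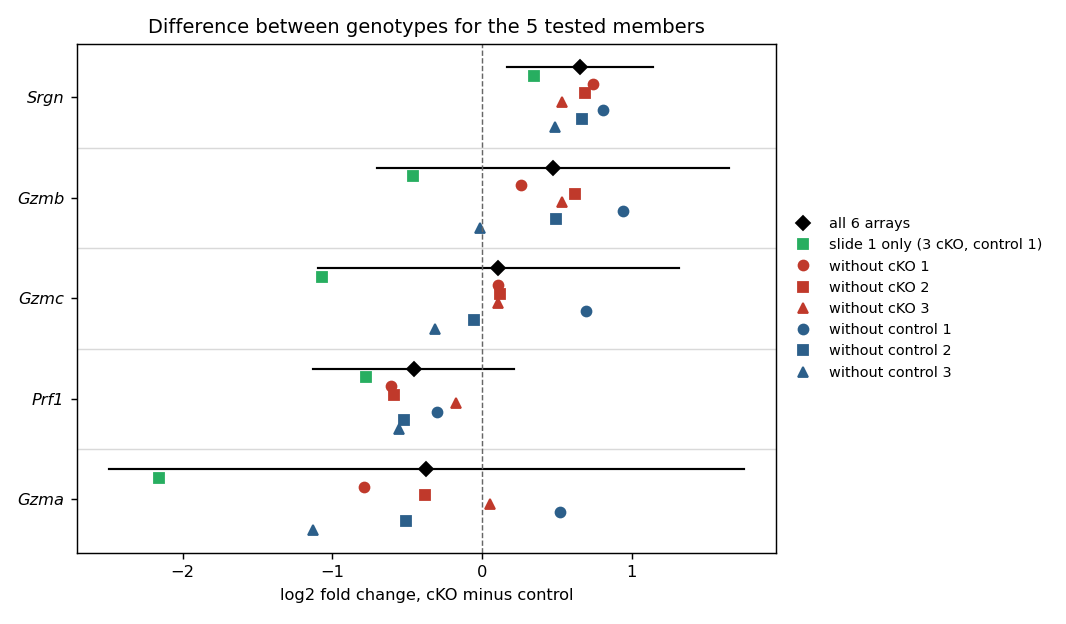
Log2 fold change, cKO minus control, of the 5 tested members with all 6 arrays (black diamond, line: 95% interval of the limma fit), within slide 1 (green) and with each array left out (red: a cKO array, blue: a control array). Srgn stays above 0 and Prf1 below 0 under each of these choices, whereas Gzmb, Gzmc and Gzma lie on both sides of 0.

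The 3 granzymes that were measured on all arrays were among the more variable genes between mice of 1 genotype. The pooled SD within the groups was 1.32 for Gzma, and 0.884% of tested probes had a larger one. It was 0.74 for Gzmc and 0.72 for Gzmb, with 4.55% and 4.78% of probes above them, 0.40 for Prf1 (16.7%) and 0.27 for Srgn (33.3%), beside a median of 0.20 over all tested probes. Control 1 was the highest array for Gzmb, Gzmc, Gzma and Prf1, while it was the highest array for 8.83% of all tested probes. Control 3 was the lowest for Srgn, Gzmb, Gzmc and Gzma, and for 19.0% of all tested probes. With 3 mice per group, the 95% intervals of Srgn, Gzmb, Gzmc and Gzma reached beyond a 2-fold higher level in cKO, and those of Gzmc, Gzma and Prf1 beyond a 2-fold lower one.

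The other 5 members gave little signal. Gzmk, a neighbour of Gzma with a trypsin-like protease as product, was well above background in cKO 1 and cKO 3, with signals of 54.1 and 42.2, and not in cKO 2 or in the controls, which read 13.1 and 18.2, 11.9 and 16.2. The mean over the 3 cKO arrays was 1.97-fold above a level set for control. That level took, on each control array, the higher of the Gzmk reading and the dimmest probe well above background. It is not a detection limit, since Gzmg read 46.5 on control 1, above that dimmest probe, and was not well above background. The ratio rests on 2 cKO arrays and was not tested. Gzmg read 59.5 in cKO 3 and was not well above background on the other 5 arrays, where it read 14.7 to 46.5. Gzme read 85.9 in cKO 2 and 7.02 to 14.9 on the other 5 arrays, where it was not well above background. Its cKO mean was 1.15-fold above the control level set in the same way. That ratio rests on cKO 2 alone, as cKO 1 and cKO 3 read below the level set for control. Gzmd, at 6.95 to 15.0, and Gzmf, at 9.66 to 24.2, were well above background on 0 of 6 arrays. Since cKO 2 read 11.5 for Gzmd, the high Gzme reading on that array was not shared by the similar probe.

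**Figure D3:**
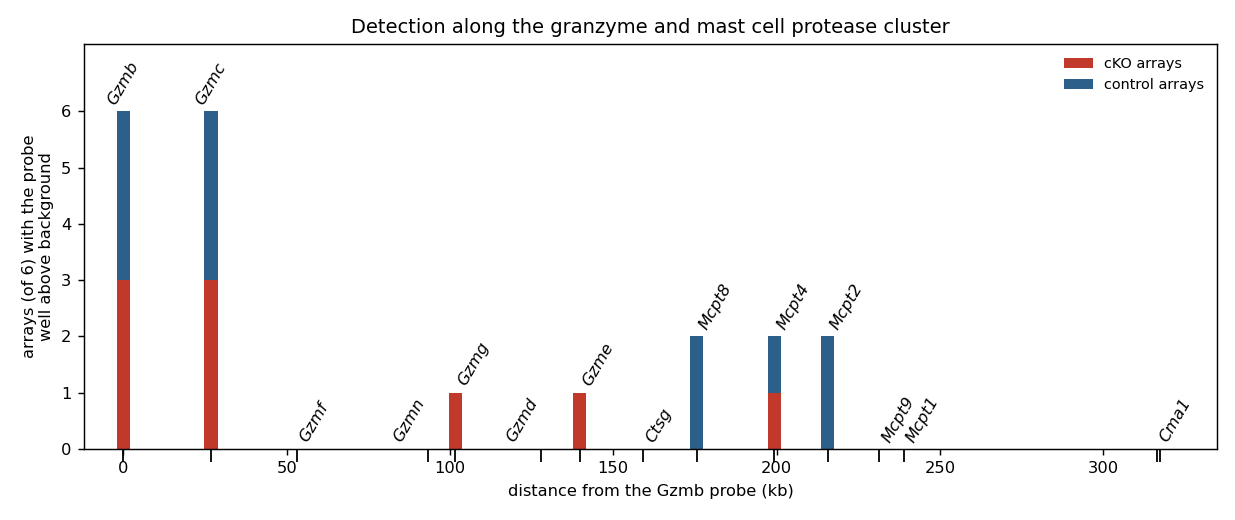
Number of arrays, of 6, on which each probe of the chromosome 14 protease cluster was well above background, stacked as cKO (red) and control (blue) arrays, against the distance of the probe from the Gzmb probe in kb. Ticks under the axis mark the probes. Gzmb and Gzmc, at the same end of the cluster, were detected on all 6 arrays, and no other probe on more than 2.

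Along the cluster, detection on all 6 arrays was limited to its first 2 probes. Gzmb and Gzmc lie 26.8 kb apart, and the Gzmf probe, the next member, at 53.1 kb from Gzmb was at background. Gzmg at 102 kb, Gzmd at 128 kb and Gzme at 140 kb were described above. Beyond them lie the mast cell proteases, of which Mcpt8 and Mcpt2 were well above background on 2 control arrays each and on no cKO array, and Mcpt4 on 1 array of each group. Gzmn, Ctsg, Mcpt9, Mcpt1 and Cma1 were on 0 arrays. Gzmm, a granzyme outside the cluster, was the 1 tested gene of the 10 in this list of further granzymes and cluster proteases, with means of -3.70 in cKO and -3.36 in control and overlapping groups (log2 difference -0.35, adjusted p = 0.30, limma, and -0.31 within slide 1).

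Granzymes need a set of proteins to mature and leave the cell, and 17 of 18 such genes were tested. None passed the adjusted threshold, and 4 of the 17 passed the unadjusted one as higher in cKO, beside 11.7% of all tested probes. At the same threshold 0 were lower, and the median log2 difference was 0.29. Cd63, a membrane protein of granules, read -2.25, -1.84 and -1.62 in cKO and -2.64, -2.75 and -2.81 in control, a difference of 0.83 ± 0.18 (SE, adjusted p = 0.11, limma). Rab27a, the GTPase that docks granules at the membrane, read 0.64, 0.52 and 0.37 in cKO and 0.16, 0.03 and -0.18 in control, a difference of 0.51 ± 0.13 (SE, adjusted p = 0.14, limma), although another of its probes gave 0.12. Within slide 1 the differences of Cd63 and Rab27a were 0.74 and 0.35. The groups did not overlap for either gene. This held for 7 of the 17 tested genes, all 7 higher in cKO, beside 16.2% of all tested probes as higher. Ctsc, whose product cathepsin C activates the granzymes, differed by -0.46 ± 0.19 (SE, adjusted p = 0.22, limma) and by -0.41 within slide 1.

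The sugar chains of serglycin are built by a further group of enzymes, of which 12 of 13 were tested. Again 0 passed the adjusted threshold, with 3 higher and 2 lower at the unadjusted one, which 23.0% of all tested probes passed. The median log2 difference was -0.15. Chst12, a chondroitin sulfotransferase, read 1.64, 1.77 and 1.55 in cKO and 1.05, 1.06 and 1.28 in control (difference 0.52 ± 0.12 SE, adjusted p = 0.12, limma). Xylt2, the xylosyltransferase that attaches the first sugar, read 2.04, 2.14 and 2.75 in cKO and 1.82, 1.66 and 1.55 in control (difference 0.63 ± 0.21 SE, adjusted p = 0.18, limma). Within slide 1 the differences were 0.60 and 0.49. Both were higher on every cKO array, as Srgn and 16.2% of all tested probes were, and neither passed the adjusted threshold. Of the 12 tested genes, 4 were higher and 8 lower in cKO over all arrays. The groups did not overlap for 4 of them, 3 of these higher in cKO, beside 36.5% of all tested probes.

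Among genes for inhibitors, uptake receptors and substrates of granzymes, 14 of 15 were tested, and 0 passed the adjusted threshold. At the unadjusted threshold, passed by 23.0% of all tested probes, 1 was higher and 3 were lower in cKO, with a median of -0.23. Serpinb9, the intracellular inhibitor with which lymphocytes protect themselves from granzyme B, read -2.41, -2.42 and -2.87 in cKO and -1.54, -1.59 and -1.94 in control (difference -0.88 ± 0.18 SE, adjusted p = 0.11, limma). Both of its probes pointed down, the groups did not overlap, and the difference within slide 1 was -1.03. Groups that did not overlap were seen for 8 of the 14 tested genes, 2 of these higher in cKO, beside 36.5% of all tested probes.

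Regulators of the cytotoxic genes, the transcription factors and IL-2 receptor chains known to act on them, made up a list of 18, of which 17 were on the array and tested. None passed the adjusted threshold. At the unadjusted one 7 of 17 passed as higher in cKO and 0 as lower, beside 11.7% of all tested probes as higher. In all, 16 of 17 were higher with a median log2 difference of 0.42, beside 10149 of the 22281 tested probes. The list was not divided into factors that raise and factors that lower the cytotoxic genes. Prdm1, which encodes Blimp-1, a factor of effector lymphocytes, read -0.98, -1.49 and -0.53 in cKO and -2.14, -2.55 and -3.53 in control, 3.34-fold higher with a log2 difference of 1.74 ± 0.41 (SE, adjusted p = 0.12, limma). Hopx, a homeodomain protein of effector and induced regulatory T cells, read 1.97, 2.34 and 3.25 in cKO and 1.28, 0.99 and 0.41 in control, 3.08-fold higher (difference 1.62 ± 0.38 SE, adjusted p = 0.12, limma). Within slide 1, 15 of the 17 were higher with a median of 0.30, Prdm1 by 1.14 and Hopx by 1.24. Tbx21 and Eomes, the T-box factors best known as activators of Gzmb and Prf1, differed by 0.59 ± 0.27 and 0.17 ± 0.49 (SE, adjusted p = 0.25 and 0.84, limma), with 0.10 and -0.55 within slide 1. Il2ra was the gene with a negative value over all arrays, -0.55 ± 0.33 (SE, adjusted p = 0.33, limma), with -0.45 within slide 1.

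Of 5 other killing molecules, all tested, 0 passed the adjusted threshold and 1 the unadjusted one (23.0% of all tested probes), with a median of -0.12. Ifng, which encodes interferon-γ, read 5.47, 5.22 and 5.69 in cKO and 5.11, 4.28 and 2.73 in control (difference 1.42 ± 0.58 SE, adjusted p = 0.22, limma, and 0.35 within slide 1). Control 3 was the lowest array, as it was for Srgn, Gzmb, Gzmc and Gzma. Lta, which encodes lymphotoxin-α, read 6.19, 6.01 and 5.05 in cKO and 6.30, 6.20 and 6.42 in control, where cKO 3 was lowest, as it was for Prf1 (difference -0.56 ± 0.30 SE, adjusted p = 0.30, limma, and -0.55 within slide 1).

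The genes with the pattern nearest to a member were found by the root mean square difference over the 6 arrays of log2 values after the mean of each probe was subtracted, among tested probes with a gene symbol. For Srgn these were Dennd4a (0.054), Il2rb (0.057), the β chain of the IL-2 receptor, and Dsel (0.059), an epimerase of glycosaminoglycan chains. For Gzmb they were Emilin2 (0.24), Ghdc (0.27) and Itgae (0.28), the integrin chain CD103, with Gzmc at 0.33. For Prf1 they were Trmt11 (0.11), Ddx27 (0.11) and Noc2l (0.12), of which Ddx27 and Noc2l are nucleolar proteins. A pattern over 6 arrays is short, and it says nothing of shared function or control. Srgn itself lay at 0.48 from Gzmb and 0.69 from Prf1, a measure that also grows with the spread of a gene.

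**Figure D4:**
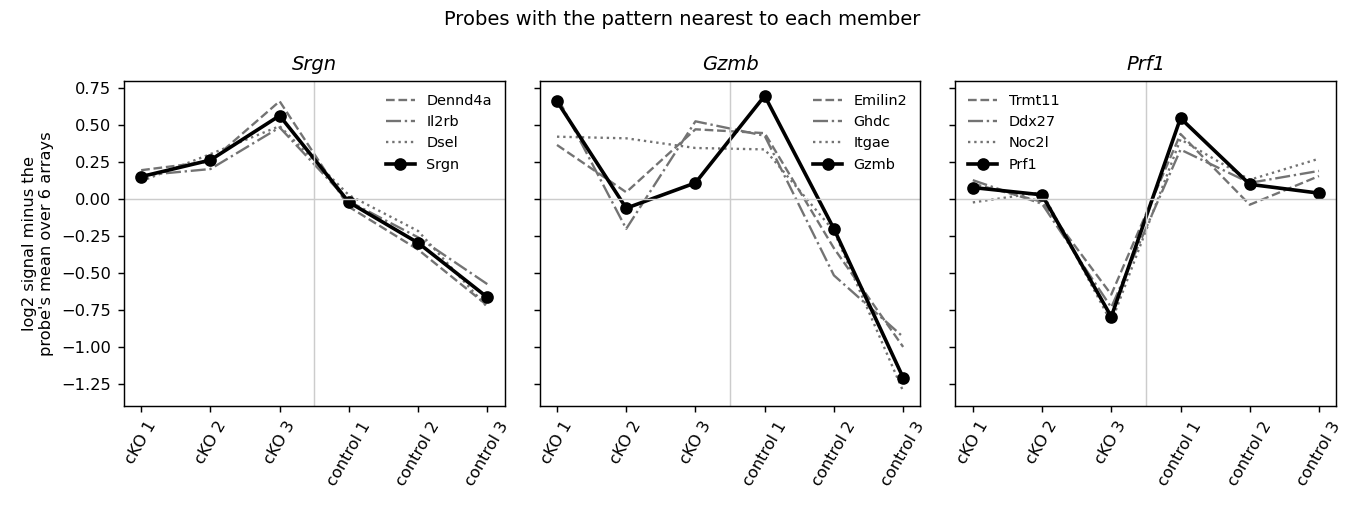
Log2 signal minus the mean of the same probe over the 6 arrays, for Srgn, Gzmb and Prf1 (black) and the 3 genes nearest in pattern to each (grey lines). The lines join separate mice and mark no course. Srgn is above its mean on the 3 cKO arrays, Gzmb has its lowest value on control 3 and Prf1 on cKO 3.

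Genes that mark CD8 T and NK cells were examined because such cells hold most of the members. Of 8 markers, 5 were tested and 0 passed the adjusted threshold. At the unadjusted one 3 of the 5, all NK receptor genes, passed as higher in cKO, beside 11.7% of all tested probes. Klrd1 read 3.03, 0.60 and 3.19 in cKO and 0.90, 0.18 and 0.07 in control. Klrk1 read 0.18, -1.51 and 0.15 in cKO and -1.23, -1.87 and -3.22 in control. Klrc1 read 1.01, -1.29 and 0.92 in cKO and -1.32, -1.80 and -1.72 in control, so the high arrays for all 3 were cKO 1 and cKO 3, the arrays on which Gzmk was above background. Ncr1 was well above background on these 2 arrays alone, but its values did not follow them. It read -4.21, -4.34 and -4.15 in cKO and -5.82, -5.78 and -6.53 in control. The adjusted p values of Klrd1, Klrk1 and Klrc1 were 0.20, 0.20 and 0.18 (limma), and their differences 1.89, 1.71 and 1.82 over all arrays and 1.37, 0.84 and 1.53 within slide 1. Activated CD8 T cells and some CD4 T cells use these receptors too.

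The CD8 chains did not follow these 2 arrays. Cd8a read 0.57, -0.23 and -0.94 in cKO and 1.07, 0.27 and 0.63 in control, with a log2 difference of -0.86 ± 0.41 (SE, adjusted p = 0.25, limma) and of -1.27 within slide 1. Cd8b1 read 1.46, 1.68 and 2.02 in cKO and 1.81, 1.77 and 2.09 in control, a difference of -0.17 ± 0.18 (SE, adjusted p = 0.56, limma) and of -0.09 within slide 1. Both CD8 genes were well above background on all 6 arrays of cells sorted as CD4+. The NK markers Klrb1c and Klre1 were well above background on 0 of 6 arrays. Control 1 had the highest value of Cd8a as it had of Gzma, Gzmb, Gzmc and Prf1. The summed linear level of the 8 markers, relative to the 75th percentile, ranged from 6.41 to 16.8 in cKO and from 6.35 to 8.34 in control. The part of other cells in the values of the members was not tested.

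**Figure D5:**
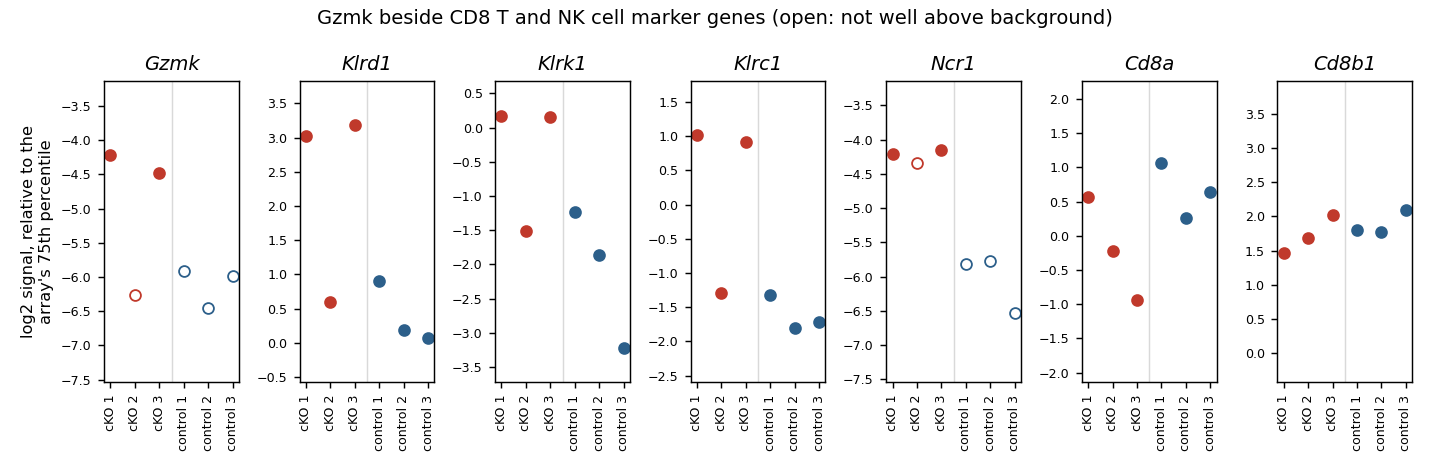
Log2 signal relative to the 75th percentile of the array for Gzmk and 6 marker genes of CD8 T and NK cells in the 3 cKO (red) and 3 control (blue) arrays, with open symbols where the probe was not well above background. Every panel spans the same number of log2 units. Gzmk, Klrd1, Klrk1 and Klrc1 are highest on cKO 1 and cKO 3, and Cd8a and Cd8b1 are not.

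Markers of other cells were few. Of 7 mast cell and basophil markers 1 was tested, Kit, which early lymphoid and other cells share, and Ms4a2 and Tpsb2 were well above background on 0 arrays. The summed linear level of these 7 was 0.351 to 1.94 in cKO and 0.258 to 0.571 in control. Myeloid markers, 2 of 7 tested, summed to 0.247 to 0.386 in cKO and 0.262 to 0.448 in control, with Emr1 and Elane at background. B cell markers, 1 of 5 tested, summed to 0.571 to 1.33 and 0.396 to 0.654, with Pax5 at background. Erythroid markers, 1 of 4 tested, summed to 0.503 to 1.10 and 0.202 to 0.398, with Alas2 at background, and epithelial markers, 3 of 4 tested, to 1.36 to 2.05 and 0.842 to 0.934, with Krt8 at background. Erythroid and epithelial sums were thus higher on each cKO array, as Srgn and 16.2% of all tested probes were. The part of such cells in the difference of Srgn was not tested. The 3 tested epithelial genes, Cdh1, Epcam and Krt18, differed by 1.02, 0.62 and 0.45 (adjusted p = 0.14, 0.16 and 0.32, limma). Within slide 1 these differences were 0.88, 0.78 and 0.49. The 1 tested erythroid gene, Hbb-b1, differed by 2.10, with 1.55 within slide 1, and its probes gave 0.44 to 2.27. Hba-a1 went the other way, with means of -5.54 in cKO and -3.67 in control. It was well above background on 2 control arrays and 0 cKO arrays, so the erythroid genes did not move as a class.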

How the data were processed

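RNA of iTreg cultures from 3 cKO and 3 control mice, each mouse 1 sample, was labelled with Cy3 and hybridised to 1 array each. The deposited scanner files hold the intensity of every spot, and per the file headers the authors' processed signal was made by Agilent Feature Extraction 10.7.3.1 (the labels name version 9.1), which subtracts background. The series table of the authors holds log2 values of the same arrays and was used as an alternative. The methods give another IL-2 dose than the labels, which are followed here. Control spots and outlier spots were left out, log2 values of spots of 1 probe were averaged, and the 75th percentile over probes was subtracted per array. Probes well above background on at least 3 arrays were fitted with limma 3.58.1 in R 4.3.3 (lmFit and eBayes, cKO minus control, Benjamini-Hochberg over all tested probes), in place of the Student's test of the methods, which was run as an alternative. The fit was run on simulated data with independent values, no slide effect and shifts larger than any member difference over all arrays. That run does not bear on the slides or on differences as small as those of the members. The number of arrays limits the precision. Genes of a list were read by their brightest tested probe. Named genes were all members, in each list the genes past an adjusted p of 0.05 or else the 2 with the smallest unadjusted p, the 3 nearest patterns to Gzmb, Prf1 and the member with the largest difference, and markers beside a result; Ctsc, Tbx21, Eomes, Il2ra, Ctla4 and the proteases of the chromosome 14 cluster were named after their values were seen. A gene that this rule names is not reported here. The members and the 13 gene lists were chosen with earlier results of these data known. Promoter and miRNA sequences are RefSeq's (GRCm38.p6) and all 10 members matched; probe positions are the array's (mm9). Alternatives were other background corrections, scalings, filters and tests, the authors' table, array weights, a replicate block, slide as a term, slide 1 alone, each array left out, and 1 probe per gene.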

Additional observations from a re-analysis of the deposited data

How the results depend on the processing

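No member passed an adjusted p of 0.05 under any alternative with more than 1 control array (limma, or Student's test of the methods). Slide 1 alone is given as a difference only. Over the array the number of such probes ranged from 0 to 1824 (29 as reported). It was 0 without a filter, with normexp scaled to the 75th percentile, with Student's test, the replicate block and slide as a term. It was 0 to 1 with 1 array left out, 79 with median scaling and 98 with trend and robust fitting. It was 115 with normexp and quantile, 175 with probes above background on all arrays and 1824 with array weights. The count of members at an unadjusted p of 0.05 was 0 with normexp and the 75th percentile, 0 with the replicate block and 0 to 3 with 1 array left out. It was 2 with slide as a term (Gzmc and Gzma, both lower), where control 1 is the only control that faces cKO arrays on its slide. The 3 without control 1 were Srgn, Gzmb (0.94) and Gzmc (0.70), all higher, so Gzmc passed in both directions. The median over members was -0.78 with slide as a term and within slide 1, and -0.31 to 0.70 with 1 array left out. Slide as a term and slide 1 alone turned Gzmb to -0.46 and Gzmc to -1.07. With 1 array left out, Srgn ranged from 0.48 to 0.81, Prf1 from -0.61 to -0.18, Gzmb from -0.012 to 0.94, Gzmc from -0.31 to 0.70 and Gzma from -1.13 to 0.52. Over the alternatives with more than 1 control array the adjusted p of Srgn ranged from 0.085 to 0.73 (limma or Student's test). Same-numbered arrays correlated at -0.14, 0.01 and -0.19 in their deviations from the group means over all tested probes, and the mice were not treated as pairs. For Gzma and Prf1, however, the values fell with replicate number in both groups. With and without the replicate block the SE was 0.35 and 0.87 for Gzma and 0.19 and 0.28 for Prf1. It was 0.31 and 0.48 for Gzmb, 0.43 and 0.50 for Gzmc, and 0.24 and 0.20 for Srgn. The cause of the shifts between alternatives was not tested.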
